A study of Mus musculus with 24 samples.

Results

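Mast cells and eosinophils are granule-bearing immune cells of mucosa and connective tissue, and 10 of their genes were followed here in the uterus and in endometriotic lesions of mice. The genes were chosen by symbol: Kit, Fcer1a, Ms4a2, Cpa3, Cma1, Mcpt4, Tpsb2, Hdc, Epx and Prg2, out of 56691 genes in the table. All 10 had a line of their own, such as ENSMUSG00000027360.6 for Hdc, ENSMUSG00000005672.13 for Kit, ENSMUSG00000001865.3 for Cpa3 and ENSMUSG00000027073.6 for Prg2, and 9 passed the filter on low counts. Epx, which did not, held 17 reads in all libraries together.

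RNA sequencing was done on 24 libraries in 6 groups of 4, all collected on pregnancy day 3.5 from mice of a mixed C57BL/6 and SV129 background that had surgery at 8 weeks of age. Sham uterus came from sham-operated mice, eutopic uterus from the uterus of mice in which endometriosis had been induced, and lesions are the ectopic lesions of those mice, each at 1 month and at 3 months after surgery. Fertility is labelled for each group: subfertile for eutopic uterus and lesions at 3 months, and fertile for the other 4 groups. By the labels all groups carry Rosa26mTmG/+, a fluorescent reporter that Cre recombinase switches, and lesions alone carry Pgrcre/+ as well, a Cre driven from the progesterone receptor gene. The series text instead gives the Cre driver for all mice with endometriosis. Genotype therefore cannot be told apart from tissue by the labels, or from surgery by the series text, and mice at 3 months were older than those at 1 month. The labels do not tie libraries to animals, so p-values measure the spread between samples, which may be technical.

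Mast cells mature in tissues under stem cell factor, which binds the receptor Kit. They carry IgE on the receptor whose alpha and beta chains are Fcer1a and Ms4a2, and store proteases (Cpa3, Cma1, Mcpt4, Tpsb2) and histamine, made by the enzyme Hdc. In the mouse uterus Hdc is also known from the epithelium around implantation, where progesterone induces it. Eosinophils store the granule proteins Epx and Prg2. RNA of whole tissue cannot tell fewer cells of a type from less RNA per cell.

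The promoters of 3 proteases are shown because these genes moved together across libraries, with that of Hdc, which did not follow them. Of the 10 genes, 8 had an entry in the RefSeq promoter table on GRCm38.p6, each covering 250 bases before to 50 after the start. The deposited counts rest on mm39 and carry no positions. Each line runs 5′ to 3′ along the gene, from the minus strand. Capitals mark GATAA, the core that GATA factors recognise, on either strand (TTATC is its reverse complement), and in Hdc ACANNNTGT, the core of a progesterone response element. The Cpa3 promoter lies at chr3:20242132-20242431, Cma1 at chr14:55944626-55944925, Mcpt4 at chr14:56062261-56062560 and Hdc at chr2:126618629-126618928.
Cpa3: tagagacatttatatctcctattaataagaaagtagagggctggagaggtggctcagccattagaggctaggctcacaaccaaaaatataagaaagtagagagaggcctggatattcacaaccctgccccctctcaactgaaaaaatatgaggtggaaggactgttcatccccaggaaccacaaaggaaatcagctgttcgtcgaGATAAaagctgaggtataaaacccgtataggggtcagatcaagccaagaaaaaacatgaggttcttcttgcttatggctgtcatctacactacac
Cma1: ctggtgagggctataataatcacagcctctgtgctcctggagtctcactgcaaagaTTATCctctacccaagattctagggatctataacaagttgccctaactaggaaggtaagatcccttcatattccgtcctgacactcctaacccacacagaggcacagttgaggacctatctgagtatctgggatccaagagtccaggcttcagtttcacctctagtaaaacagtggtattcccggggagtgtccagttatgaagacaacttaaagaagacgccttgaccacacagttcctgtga
Mcpt4: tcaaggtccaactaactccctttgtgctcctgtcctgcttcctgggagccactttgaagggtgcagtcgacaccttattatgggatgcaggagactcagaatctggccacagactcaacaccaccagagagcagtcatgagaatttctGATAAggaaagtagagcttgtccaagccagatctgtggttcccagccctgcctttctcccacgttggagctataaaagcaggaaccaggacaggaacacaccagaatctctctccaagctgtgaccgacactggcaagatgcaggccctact
Hdc: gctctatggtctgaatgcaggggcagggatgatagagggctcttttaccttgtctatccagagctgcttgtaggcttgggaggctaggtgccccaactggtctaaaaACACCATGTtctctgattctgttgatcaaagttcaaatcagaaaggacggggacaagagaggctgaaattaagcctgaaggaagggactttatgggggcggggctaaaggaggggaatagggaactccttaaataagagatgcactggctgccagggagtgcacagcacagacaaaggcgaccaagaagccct

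GATAA stood in 5 of the 8 promoters, those of Fcer1a, Ms4a2, Cpa3, Cma1 and Mcpt4, and in none of Kit, Hdc and Epx. It stood in 25.3% of all 32544 promoters of the same length. CATGTG, the core known for the mast cell factor Mitf, was found in Fcer1a alone among these genes and in 14.2% of all promoters. ACANNNTGT was found in Hdc alone among them, 143 bases before the start, and in 6.83% of all promoters. Both strands were searched for each motif, and a match is a run of letters, not a bound site.

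Total counts ran from 45133642 to 59407134 per library. Levels are CPM, counts set to a common library total with factors from the trimmed mean of M values (TMM), and are given for libraries 1 to 4 of a group in that order. Differences are log2 values ± standard error (SE) from edgeR's quasi-likelihood test, and calls required an adjusted p (Benjamini-Hochberg, over all genes tested) under 0.05. Lesion libraries differed in the other tissue they carried. At 3 months, lesion library 1 had 14531 CPM summed over 8 oocyte and ovarian genes, where no uterine library passed 19.6, and library 2 had 34718 CPM over 5 skeletal muscle genes and 698 over 4 adipocyte genes. Summed over 6 genes of luminal and glandular epithelium, these libraries held 114 and 45.8 CPM, against 591 to 1688 in uterine libraries. Lesion library 2 at 1 month held 77516 CPM over 5 pancreas genes. Lesion libraries 3 and 4 at 3 months held 11001 and 5460 CPM over the skeletal muscle genes, where no uterine library passed 317. Fits without lesion libraries 1 and 2 at 3 months therefore still held libraries with other tissue.

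Between eutopic and sham uterus no gene of the set was called at either time. At 1 month 2 genes of the whole table were called (0.00943% of 21208), and at 3 months 0%. Unadjusted p-values under 0.05 fell on 1 of the 9 genes at 1 month, Ms4a2, and on 3 at 3 months (Fcer1a, Cma1 and Mcpt4), beside 4.81% and 4.77% of all genes. Those 3 genes moved together across the uterine libraries, so they are not separate results. DESeq2 and limma voom called none of the 9 either. The median difference over the 9 genes was -0.53 at 1 month and 0.79 at 3 months, where the medians of all genes were -0.00052 and -0.0061.

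**Figure D1:**
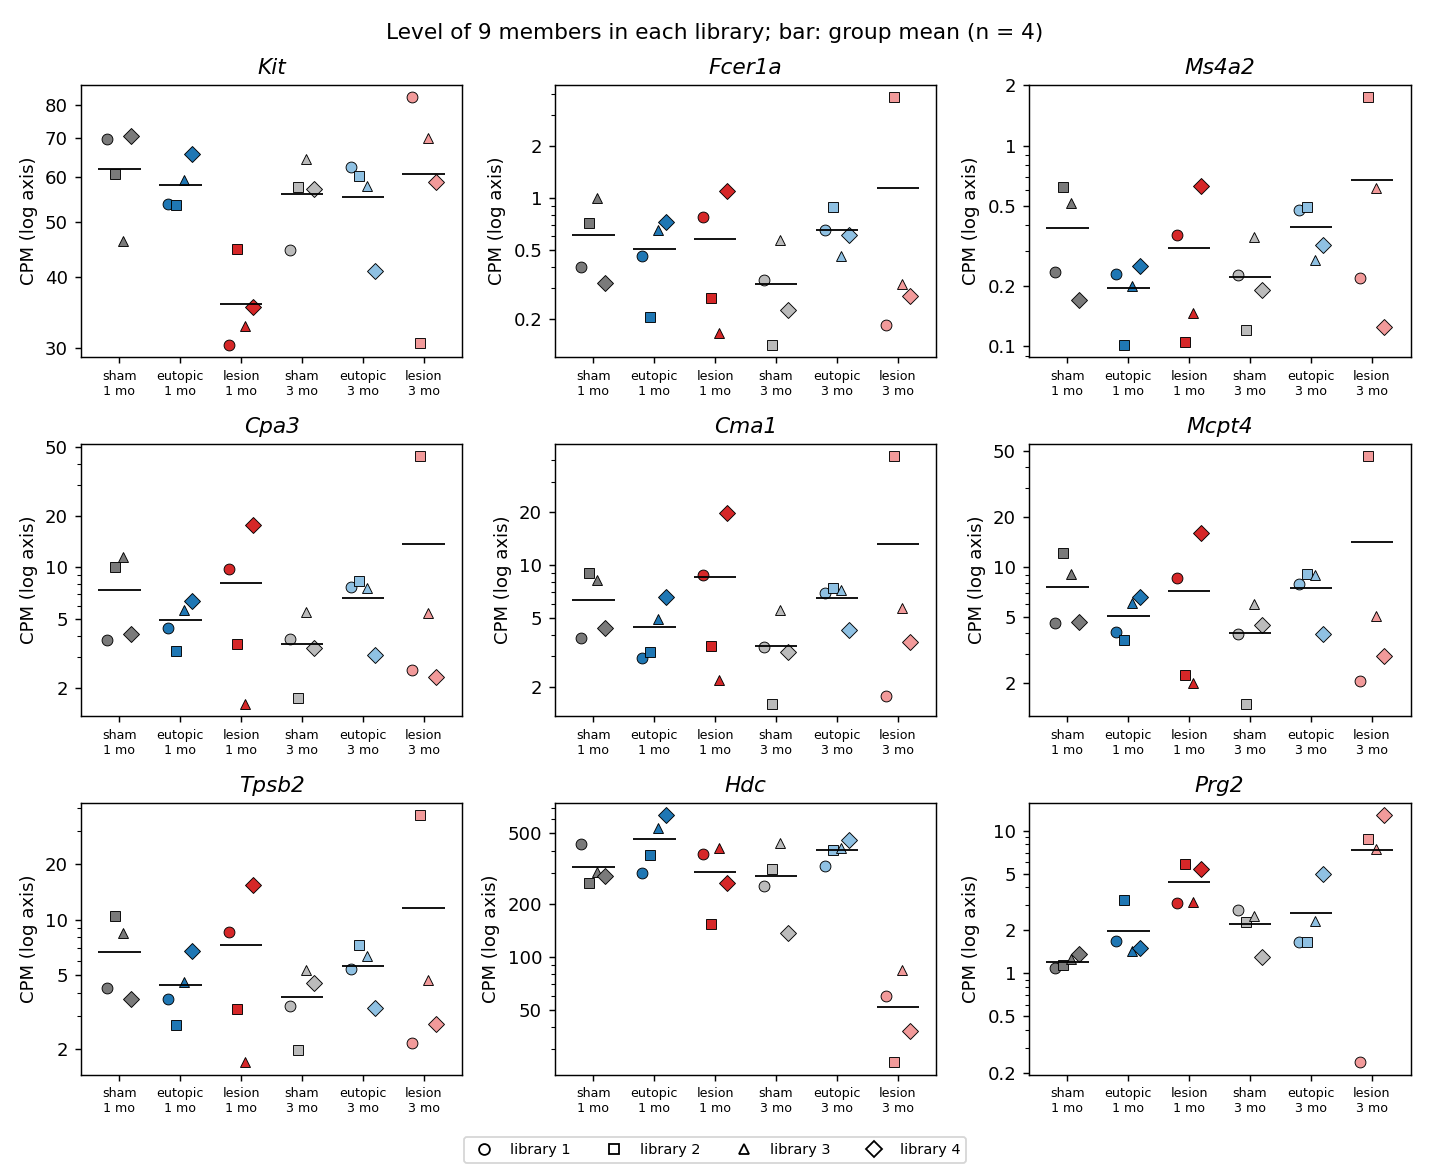
Level of 9 genes in each of 24 libraries, in CPM on a log axis, by group (sham uterus, eutopic uterus and lesions at 1 and 3 months); symbols give the library number and bars the mean of 4 libraries. Hdc is at 25.4 to 84.7 CPM in lesions at 3 months and at least 137 in every other library, while lesion library 2 at 3 months stands at 36.7 to 46.7 CPM for the 4 proteases.

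Kit was lower in lesions than in eutopic uterus at 1 month. Its level was 53.7, 53.5, 59.1 and 65.7 CPM in eutopic uterus and 30.4, 44.8, 32.8 and 35.3 in lesions. All 4 lesion libraries lay below all 4 eutopic ones. The difference was -0.68 ± 0.22 (SE), 1.60-fold lower, with adjusted p = 0.035 in edgeR, and against sham uterus (69.9, 60.5, 46.3 and 70.6 CPM) it was -0.77 ± 0.22 with adjusted p = 0.024. Kit was the 1 gene of the 9 called in each of these comparisons, in which 20.7% and 15.0% of all genes were called (8.76% and 5.53% as lower). The call against eutopic uterus was lost when lesion library 1, 3 or 4 or eutopic library 2, 3 or 4 was left out (adjusted p = 0.057 to 0.089), and that against sham uterus without lesion library 1, 3 or 4 or sham library 1 or 4 (0.055 to 0.067).

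At 3 months Kit in lesions spread from 30.6 CPM in library 2 to 82.7 in library 1, with 70.2 and 58.7 in libraries 3 and 4. Eutopic uterus at that time held 62.4, 60.2, 57.7 and 40.9 CPM, so the groups overlapped, and the difference was 0.15 ± 0.22 (adjusted p = 0.62). From 1 to 3 months Kit rose in lesions by 0.77 ± 0.22 (adjusted p = 0.030), as 1 of 2 genes of the set called there, with 10.9% of all genes called. The test of whether the lesion-eutopic difference itself changed with time gave 0.83 ± 0.31 and adjusted p = 0.21. Oocytes are known to express Kit, and the library with the highest Kit level was the one with the ovarian genes, among them Gdf9 at 2772 counts. Without libraries 1 and 2 at 3 months the rise was 0.84 ± 0.19 (adjusted p = 0.011), and without library 1 alone it was 0.58 ± 0.22 (adjusted p = 0.076). The call was also lost without library 3 at 3 months or library 1, 3 or 4 at 1 month (adjusted p = 0.054 to 0.098), with the replicate number as a block (0.054), in limma voom (0.061) and with the lesion libraries alone (0.33). Genes of melanocytes, which also carry Kit, summed to at most 1.53 CPM in every library, with Tyr and Tyrp1 at 0 in all 4 lesions at 1 month. Of 3 genes of interstitial cells of Cajal, which also carry Kit, 1 was called as higher in lesions than in eutopic uterus at 1 month and 2 at 3 months, too few genes to read against the 12% and 23.4% of all genes called as higher. The part of oocytes, melanocytes or interstitial cells of Cajal in the Kit level was not tested.

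The chains of the IgE receptor were near the lower limit of counting. Fcer1a, which binds IgE, held between 0.141 and 1.00 CPM in uterine libraries, and Ms4a2, its signalling partner, between 0.102 and 0.623. In lesions at 1 month Fcer1a was at 0.771, 0.263, 0.166 and 1.10 CPM, and at 3 months at 0.183, 3.82, 0.316 and 0.272. Ms4a2 was at 0.359, 0.105, 0.147 and 0.627 CPM and then at 0.219, 1.74, 0.613 and 0.126. The same libraries were high for both chains, number 4 at 1 month and number 2 at 3 months, and lesions overlapped eutopic uterus at both times.

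The 4 proteases had low and variable levels in every group. Cpa3, a carboxypeptidase of mast cell granules, stood at 3.77, 10.03, 11.6 and 4.11 CPM in sham uterus at 1 month and at 4.45, 3.28, 5.69 and 6.40 in eutopic uterus. At 3 months it stood at 3.82, 1.74, 5.52 and 3.39 in sham and at 7.68, 8.31, 7.62 and 3.08 in eutopic uterus. In lesions it was at 9.77, 3.58, 1.62 and 17.6 CPM at 1 month and at 2.52, 44.3, 5.46 and 2.32 at 3 months. The lesion groups thus held both the lowest and the highest Cpa3 level of the 24 libraries.

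Cma1 and Mcpt4, chymases of connective tissue mast cells, and Tpsb2, a tryptase, followed Cpa3 from library to library. In lesions at 3 months Cma1 was at 1.77, 41.9, 5.66 and 3.64 CPM, Mcpt4 at 2.07, 46.7, 5.10 and 2.93, and Tpsb2 at 2.16, 36.7, 4.69 and 2.72. In each of them library 2 stood far above the other 3, which lay within the range of uterine libraries. The CPM of Cma1 was 0.659 to 1.57 times that of Cpa3 over the 24 libraries (median 0.946), of Mcpt4 0.625 to 1.33 times (median 1.06) and of Tpsb2 0.706 to 1.34 times (median 0.884). These ratios also carry transcript length, so they describe how steady the proportions were and not which gene was higher. Cpa3 itself ranged over 27.4-fold. Of the 50-base stretches of each gene's transcripts (GENCODE vM21), 5.48% in Mcpt4 and 5.38% in Cma1 occur in another gene, so a part of their reads could be split with a close copy.

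**Figure D2:**
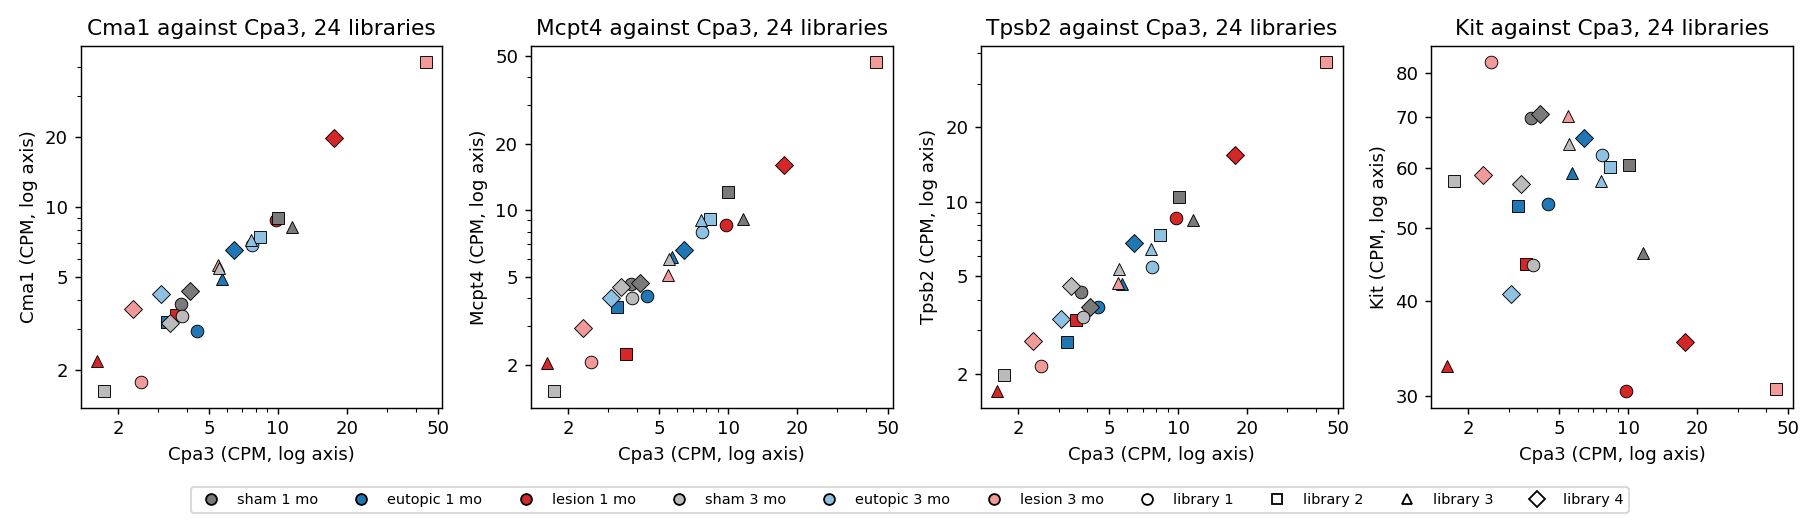
Levels of Cma1, Mcpt4, Tpsb2 and Kit against Cpa3 in 24 libraries, in CPM on log axes, coloured by group, with symbols for the library number. The 3 proteases lie along a line from 1.62 to 44.3 CPM of Cpa3, and Kit does not.

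Across the 16 uterine libraries the receptor chains and the proteases moved with Cpa3. Pearson's r of log2 CPM was 0.962 for Mcpt4, 0.946 for Cma1 and 0.939 for Tpsb2 (Spearman's rho 0.959, 0.894 and 0.932), each with permutation p = 1e-05, the smallest that 100000 resamples can give, and adjusted p = 4.33e-05 over 13 relations. It was 0.851 for Fcer1a and 0.815 for Ms4a2 (rho 0.838 and 0.771, permutation p = 6e-05 and 0.00014, adjusted p = 0.000195 and 0.000364). Without the 2 libraries farthest from the median of Cpa3 these 5 values were 0.731 to 0.967, and on deviations from group means 0.797 to 0.949. Kit and Hdc did not follow Cpa3, with r = 0.12 and 0.155 (rho 0.276 and 0.0294, permutation p = 0.656 and 0.569, adjusted 0.711 and 0.673). Prg2 gave r = -0.444 and rho = -0.421 (permutation p = 0.0862, adjusted 0.112). Among 13799 other genes with a mean log2 CPM of at least 0, the 5 most like Cpa3 over these libraries were Slc30a4 (r = 0.78), Exoc5 (0.76), Exd1 (0.76), Vps26a (0.73) and Ckm (0.72), all below the proteases. Genes at lower levels, which can include other mast cell genes, were not ranked.

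The 6 genes Fcer1a, Ms4a2, Cpa3, Cma1, Mcpt4 and Tpsb2 were not called between lesions and eutopic uterus at either time. Their median difference was 0.70 at 1 month (range 0.20 to 0.97, smallest adjusted p = 0.37) and 0.99 at 3 months (0.79 to 1.06, smallest adjusted p = 0.26), against medians of all genes of -0.012 and 0.042. None of the 6 had unadjusted p under 0.05, and DESeq2 and limma voom called none. The median at 3 months rested on 1 library. Without lesion library 2 it was -0.87, with all 6 genes below eutopic uterus and none called, and without libraries 1 and 2 it was -0.71. At 1 month it was 0.02 without lesion library 4, in which Cpa3 was at 17.6 CPM.

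Against sham uterus at 3 months Cma1 was called in lesions, at 1.97 ± 0.77 (adjusted p = 0.045), with 3 genes of the set called in all and 41.6% of all genes (23.2% as higher, 18.4% as lower). The other 5 lay between 1.59 and 1.94 with adjusted p from 0.059 to 0.089. DESeq2 called all 6 in that comparison, as did the edgeR test without lesion library 1 or 4. Of all genes, 10918 were called without lesion library 1, in place of 9257, and no setting called more. The Cma1 call was lost without sham library 1, 2 or 4 (adjusted p = 0.080 to 0.12), with no filter on low counts (0.062), with the replicate number as a block (0.15), with the compared groups alone (0.19), in limma voom (0.31) and without lesion libraries 1 and 2 (0.62). Without lesion library 2 none was called, the median was -0.14 and Cma1 was at 0.12 ± 0.58 (adjusted p = 0.89). That library carried the highest summed level of skeletal muscle and adipocyte genes of all 24, and the part of those tissues in the result was not tested.

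In the uterus the differences of the same 6 genes between eutopic and sham libraries had a median of -0.58 at 1 month (0 of 6 positive) and of 0.89 at 3 months (6 of 6 positive), with no call and with overlapping libraries for each gene at both times. At 1 month the median was -0.31 without sham library 2 and -0.03 in limma voom, where 2 of 6 were positive. Sham uterus at 3 months against 1 month gave a median of -0.89 for them, and eutopic uterus 0.50 (0.32 in limma voom). No gene of the set was called between times in sham or in eutopic uterus, where 0% and 0.00943% of all genes were called. Unadjusted p was under 0.05 for 4 of the 9 genes in sham uterus (Cpa3, Cma1, Mcpt4 and Prg2) and for 1 in eutopic uterus (Ms4a2), beside 10.7% and 2.46% of all genes, and DESeq2 and limma voom called none of the 9. The change of the eutopic-sham difference with time had a median of 1.44 over the 6 genes, from 1.14 for Tpsb2 to 1.76 for Ms4a2, with adjusted p = 0.98 for each in edgeR. For that test 4 of the 9 genes had unadjusted p under 0.05, beside 3.47% of all genes, 0.00943% of all genes were called, and DESeq2 and limma voom called none of the 9. These comparisons share their sham and eutopic libraries. The 6 genes moved together across those libraries, so their counts are not separate results and cannot be read against the shares of all genes.

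Hdc fell in lesions at 3 months. Eutopic uterus held 329, 402, 414 and 458 CPM and lesions 60.0, 25.4, 84.7 and 38.3. All 4 lesion libraries lay below all 4 eutopic ones. The difference was -2.93 ± 0.39, 7.61-fold lower, with adjusted p = 2.0e-05 in edgeR, and Hdc was the 1 gene of the 9 called, where 40.5% of all genes were called (17.1% as lower). Against sham uterus (251, 313, 444 and 137 CPM) it was -2.44 ± 0.38 (adjusted p = 8.9e-05). Both calls held under each setting tried, and with lesion libraries 3 and 4 alone the difference from eutopic uterus was -2.73 ± 0.48 (adjusted p = 0.00019).

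At 1 month Hdc in lesions overlapped the uterus, with 382, 154, 413 and 261 CPM in lesions, 300, 379, 535 and 637 in eutopic uterus and 436, 261, 303 and 287 in sham uterus. The lesion-eutopic difference was -0.61 ± 0.36 (adjusted p = 0.24). From 1 to 3 months Hdc fell in lesions by 2.52 ± 0.38 on the log2 scale (adjusted p = 0.00089), all 4 libraries at 3 months lying below all 4 at 1 month. A fit of the lesion libraries alone, which called no gene of the table, gave -2.55 and adjusted p = 0.24. The lesion-eutopic difference itself changed by -2.32 ± 0.52 (adjusted p = 0.039), the 1 call of the set in that test, in which 0.769% of all genes were called. That last call was lost without lesion libraries 1 and 2 at 3 months (-2.10 ± 0.56, adjusted p = 0.076), and when any 1 library was left out other than lesion library 2 at 1 month or lesion library 1, 3 or 4 at 3 months (adjusted p up to 0.10). Between eutopic and sham uterus Hdc was at 0.52 ± 0.29 at 1 month and 0.49 ± 0.29 at 3 months, neither called.

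**Figure D3:**
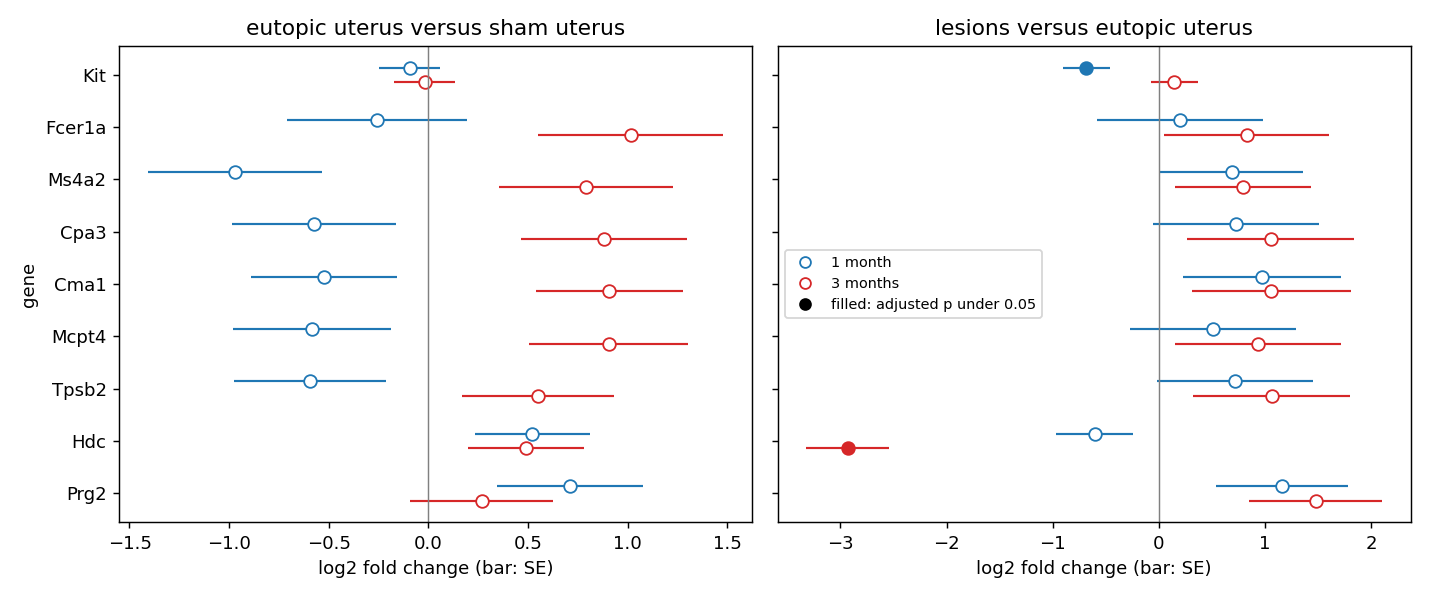
Differences of 9 genes between eutopic and sham uterus (left) and between lesions and eutopic uterus (right), on the log2 scale with SE as bars, at 1 and 3 months after surgery. Filled points passed an adjusted p of 0.05 in edgeR, which are Kit at 1 month (-0.68) and Hdc at 3 months (-2.93), both in lesions.

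The fall of Hdc was set beside the epithelial genes Krt8, Krt18, Krt19, Epcam, Cdh1 and Foxa2. Per 100 CPM of their sum, Hdc stood at 36.4 to 58.3 CPM in 15 of the 16 uterine libraries and at 8.11 in the remaining one, sham library 4 at 3 months. In lesions at 3 months libraries 1 and 2, with little epithelial RNA, held 52.8 and 55.3, within the uterine range. Libraries 3 and 4, with epithelial sums of 800.2 and 605 CPM, held 10.6 and 6.33. In lesions at 1 month the values were 56.6, 20.2, 53.9 and 38.4. The low level of Hdc at 3 months thus went with low epithelial sums in libraries 1 and 2, and not in libraries 3 and 4. Of the 6 genes, Foxa2 was low in libraries 3 and 4 as well, at 2.83 and 1.76 CPM, against 14.1 to 22.2 in eutopic uterus at 3 months. In lesions at 1 month Foxa2 was at 0.556 to 7.42 CPM. The part of epithelial RNA in the level of Hdc was not tested.

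**Figure D4:**
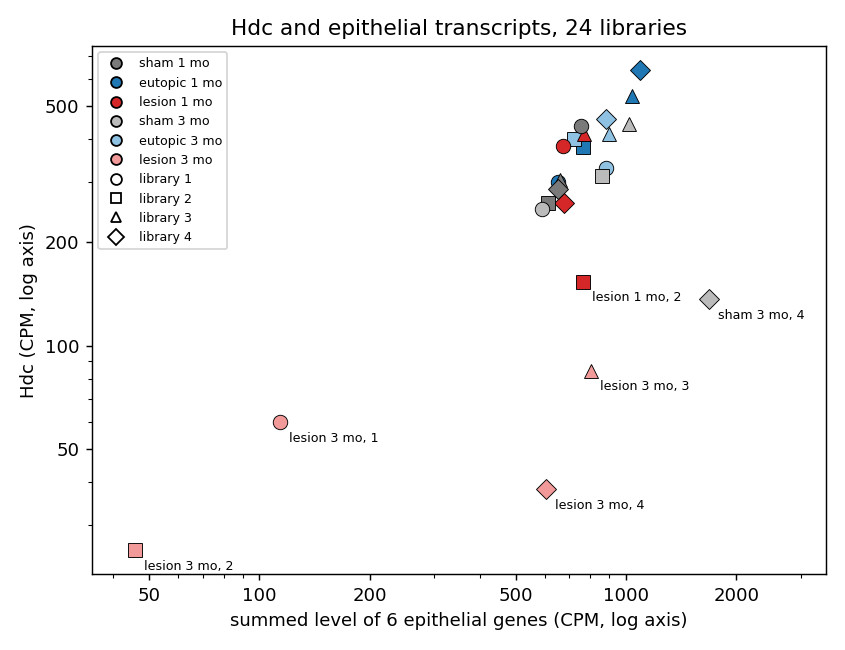
Hdc against the summed level of 6 epithelial genes in 24 libraries, in CPM on log axes, with colours for groups and symbols for the library number. Most libraries lie together at 591 to 1092 CPM of epithelial genes, and lesion libraries 3 and 4 at 3 months have epithelial sums of 800.2 and 605 CPM but Hdc at 84.7 and 38.3.

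Epithelial genes that progesterone is known to induce did not move one way in lesions. Of 6 such genes 1 rose and 1 fell against eutopic uterus at 1 month, where 12% of all genes were called as higher and 8.76% as lower, and 0 rose and 2 fell at 3 months, where these shares were 23.4% and 17.1%. Their median differences were -0.17 and -1.37, while their summed level was 511 to 574 CPM in lesions against 320 to 382 in eutopic uterus at 1 month and overlapped at 3 months. The epidermal growth factor ligand Areg fell by 2.54 ± 0.83 on the log2 scale at 1 month (adjusted p = 0.036) and fell by 3.37 ± 0.87 at 3 months (0.0046). Ihh, the hedgehog ligand of uterine epithelium, fell by 1.91 ± 0.66 at 3 months (adjusted p = 0.027), and Fgl2 rose by 0.83 ± 0.26 at 1 month (adjusted p = 0.028). Without lesion library 2 at 1 month none of the 6 was called at that time. Sham library 4 at 3 months, low in Hdc per epithelial level, held 2 counts of Areg and 3 of Calca. Across the 16 uterine libraries Hdc had r = 0.713 with Areg, 0.664 with Calca and 0.591 with Ihh (rho 0.465, 0.324 and 0.459, permutation p = 0.00829, 0.00823 and 0.0274, adjusted p = 0.0154, 0.0154 and 0.0445). Without the 2 libraries farthest from the median these were 0.119, 0.301 and 0.152, so the relations rest on those libraries. The 5 genes most like Hdc over these libraries were Ippk (r = 0.97), Rnf223 (0.96), Fam189a2, Slc25a33 and Ctsd (0.95 each).

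Genes that respond to histamine or remove it moved in both directions in lesions. Of 6 tested at each time 3 rose and 1 fell at 1 month, and 2 rose and 2 fell at 3 months, beside 12% of all genes higher and 8.76% lower at 1 month and 23.4% and 17.1% at 3 months. The receptor Hrh2 rose by 3.00 ± 0.67 (adjusted p = 0.0053), from 1.06 ± 0.0968 to 8.44 ± 3.59 CPM (SD, n = 4), and by 3.11 ± 0.68 at 3 months (adjusted p = 0.0012). At 3 months lesion library 1 held 0.421 CPM of Hrh2, below all eutopic libraries (0.747 to 1.66), and the other lesion libraries held 6.38 to 22.5. Hnmt, which methylates histamine, fell by 1.06 ± 0.28 (adjusted p = 0.013) and by 1.16 ± 0.28 (0.0028), with all lesion libraries below all eutopic ones at both times. Aoc1, a histamine-degrading oxidase, rose by 2.79 ± 0.68 at 1 month (adjusted p = 0.0083). The receptor Hrh3, called as lower at 3 months, had 3 counts in the 4 lesion libraries against 40 in eutopic uterus.

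Prg2, the major basic protein of eosinophil granules, tended to be higher in lesions, with libraries that went against this at each time. Sham uterus held 1.08, 1.14, 1.26 and 1.36 CPM at 1 month, eutopic uterus 1.69, 3.26, 1.43 and 1.51, and lesions 3.10, 5.87, 3.17 and 5.38. All lesion libraries lay above all sham ones, and 1 eutopic library overlapped them. At 3 months sham uterus held 2.77, 2.28, 2.504 and 1.30 CPM, eutopic uterus 1.67, 1.65, 2.33 and 4.97, and lesions 0.238, 8.71, 7.44 and 12.9. Lesion library 1, the one with ovarian genes, had the lowest level of all 24, and the other 3 lay above every uterine library.

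Prg2 was called in lesions against sham uterus at 3 months, at 1.74 ± 0.63 (adjusted p = 0.031). It was not called against sham at 1 month (1.87 ± 0.64, adjusted p = 0.052) or against eutopic uterus at 1 month (1.16 ± 0.62, 0.19) and at 3 months (1.48 ± 0.62, 0.064). Without lesion libraries 1 and 2 at 3 months it was called against eutopic uterus, at 1.91 ± 0.42 (adjusted p = 0.0013), and DESeq2 and limma voom called it with all libraries (adjusted p = 0.030 and 0.0058). The call against sham uterus at 3 months was lost without lesion library 2 or 4 or sham library 2, 3 or 4 (adjusted p = 0.056 to 0.11), and that against eutopic uterus was gained without lesion library 1 or eutopic library 4 (0.00044 and 0.032). Between eutopic and sham uterus Prg2 was at 0.71 ± 0.37 and 0.27 ± 0.36, neither called.

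Epx, the eosinophil peroxidase, gave no fold change. Its counts were 0, 1, 8, 1, 6 and 1 over the 4 libraries of sham, eutopic and lesion groups at 1 month and then at 3 months. Lesions at 1 month held 3 and 5 of these counts in libraries 1 and 2 and 0 in the others. A count of 0 allows up to 3 counts, which is 0.0478 to 0.0790 CPM depending on the library, so differences were not detectable at this depth. Likeness to Epx over the uterine libraries rested on 8 counts and was led by Ptgs1 (r = 0.88), with Ppl, Adgrg7, Sort1 and Clmn between 0.71 and 0.76. With Prg2, Epx had r = 0.521 and rho = 0.443 (permutation p = 0.0368, adjusted 0.0532), and r = 0.283 without the 2 farthest libraries.

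Other genes of the same cells were counted from lists. Of 20 further mast cell genes 16 were tested, and in lesions against eutopic uterus 4 rose and 0 fell at 1 month, and 9 rose and 1 fell at 3 months, with medians of 0.80 and 1.03. Of all genes 12% were called as higher at 1 month and 23.4% at 3 months. At 1 month 1 rose without lesion library 2, and at 3 months the counts stayed at 9 and 1 without libraries 1 and 2. The shares of all genes in those fits are not given here. Rab27b, which moves granules to the membrane, rose by 2.26 ± 0.51 and 2.38 ± 0.51 (adjusted p = 0.0052 and 0.0011), and Ndst2, which modifies granule heparin, by 0.34 ± 0.10 and 0.53 ± 0.10 (0.019 and 0.00028). Fcer1g, the gamma chain that other immune receptors share, rose by 1.71 ± 0.56 at 1 month (0.036). Gata2, a transcription factor of mast cells and also of uterine stroma and epithelium, fell by 2.63 ± 0.47 at 3 months (adjusted p = 0.00025), from 323 ± 33.5 to 51.9 ± 46.6 CPM (SD, n = 4). In lesions at 3 months Mrgprb1, Mrgprb2 and Tpsab1 of this list were highest in library 2, at 8.55, 2.06 and 4.28 CPM. The other lesion libraries at that time held at most 1.05, 0.514 and 0.146 CPM, where eutopic uterus reached 1.46, 0.560 and 1.82. Many genes of this list are expressed by other leukocytes, and 4 of 4 T cell genes rose at both times.

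Mcpt1 and Mcpt2, the mast cell proteases of mucosal type, were close to absent, with 1 to 7 and 0 to 3 counts per group of 4. Mcpt9, a further mast cell protease of the list, had 0 counts in all 24 libraries. Of 3 basophil genes 2 were tested and none was called at either time. Summed over the 3 they held 0.139 to 0.804 CPM in uterine libraries and 0.239 to 2.29 in lesions.

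Of 9 further eosinophil genes 5 were tested, and 1 rose in lesions at each time, the ribonuclease Ear2 (2.28 ± 0.71 and 2.10 ± 0.70, adjusted p = 0.028 and 0.022), a share near the 12% and 23.4% of all genes called as higher. Without lesion libraries 1 and 2 at 3 months 7 passed the filter and 4 rose, a count that cannot be read against the share from all 24 libraries. Of 8 tested growth factors and attractants of these cells 3 were called as higher at 1 month and 4 at 3 months, and none as lower, beside the same 12% and 23.4% of all genes. Without lesion libraries 1 and 2 at 3 months 4 of 9 rose and 1 fell, with a median of -0.07 in place of 1.12. Kitl of this list, the gene of stem cell factor, was at 52.7 to 74.6 CPM in lesions at 1 month, below all eutopic libraries (85.0 to 104), without being called. At 3 months Kitl was at 222, 90.2, 61.0 and 48.3 CPM in lesions and at 73.4 to 116 in eutopic uterus. Il33, an alarmin that acts on mast cells, rose from 9.40 ± 1.47 to 57.2 ± 12.2 CPM (SD, n = 4) at 1 month, by 2.62 ± 0.53 (adjusted p = 0.0030), and by 3.61 ± 0.55 at 3 months (6.3e-05). The attractants Ccl24 and Ccl2 rose by 2.60 ± 0.66 and 3.03 ± 0.78 at 1 month and by 4.15 ± 0.71 and 4.17 ± 0.82 at 3 months. Lesion library 1 at 3 months held 5.45 CPM of Il33 and 0.238 of Ccl24, within the eutopic ranges of 4.83 to 8.24 and 0.115 to 0.270. The other lesion libraries held 69.2 to 133 and 2.55 to 8.05 CPM. Neutrophil genes, which another granulocyte would bring, rose in 6 of 7 tested at 1 month and in 5 of 7 at 3 months, with 1 that fell (12% and 23.4% of all genes rose). Without lesion library 2 at 1 month 3 of 7 rose and 1 fell. Summed over 8 neutrophil genes, lesion libraries 1 and 2 at 3 months held 45.8 and 47.7 CPM, within the eutopic range of 41.7 to 260. Lesion libraries 3 and 4 held 2238 and 1014 CPM. The shares of all genes belong to the fit of all 24 libraries, so counts with libraries left out have no share beside them here. In none of these lists was a gene called between eutopic and sham uterus.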

How the data were processed

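RNA sequencing of 24 mouse libraries was analysed from 1 table deposited by the authors that holds whole-number read counts per gene. Per the submitters' processing notes, bcl2fastq 1.9.0, STAR 2.7.9a, edgeR and the genome build mm39 were used. The sources used here do not give the counting mode, strand setting or annotation release, so reads of overlapping genes and close copies may be split.

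Counts were tested in R 4.3.3 with edgeR 4.0.16 (TMM, filterByExpr, quasi-likelihood F-test on group means). Comparisons among uterine groups used 16 libraries and 21208 genes, those with lesions all 24 libraries and 22249 genes. Levels are CPM, and log2 CPM for correlations used a prior count of 2. The floor of 3 counts covers counting error only, while the SE of a difference also carries the spread between libraries. Alternatives were DESeq2 1.42.0, DESeq2 size factors, no filter, limma 3.58.1 voom with sample weights, other samples in the fit, a replicate term, and libraries left out. The procedure was tested on simulated data.

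The 10 genes and all lists were chosen with earlier results of these data known. All 10 genes are named, with at most 3 called genes of each list and comparison, those with the smallest adjusted p, and the 5 genes most like Cpa3, Hdc and Epx. Irg1 of the progesterone list was not found under that symbol, so 6 of 7 genes were used. A gene of the epithelial list is not reported here, and sums over that list use the other 6. Replicate numbers carry no stated pairing. Same-numbered libraries correlated in their deviations by over 0.1 in all 4 pairs for eutopic uterus at 1 and 3 months (0.105 to 0.202), and for no other pair of groups did all 4 pass 0.1. Between eutopic uterus and lesions at 1 month the values were 0.0736 to 0.191, and each eutopic library correlated best with the lesion library of its number. At 3 months they were 0.00349 to 0.337, and this held for all but library 3. The main tests used no pairing. No 2 libraries of a group agreed within sampling noise.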

Additional observations from a re-analysis of the deposited data

Results flagged for a closer look

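In groups of 4 libraries, 7 of 59 sets of values were flagged for 1 library whose gap to the nearest other exceeded Dixon's critical value at 95%. Sets of Epx in which 1 library alone held counts were not among the 7. Chance gives about 1 in 20 for independent sets, which genes that move together are not. Lesion library 2 at 3 months stood apart for Cpa3 (44.3 CPM), Cma1 (41.9), Mcpt4 (46.7), Tpsb2 (36.7) and Fcer1a (3.82), genes that moved together in the uterus as well. Eutopic library 4 at 3 months was low for Cpa3, at 3.08 CPM, and eutopic library 2 at 1 month was high for Prg2, at 3.26 CPM.

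The lesion-eutopic difference of Hdc changed by -2.32 on the log2 scale between 1 and 3 months in edgeR's interaction test (adjusted p = 0.039). All 4 lesion libraries lay below all 4 eutopic ones at 3 months, and the groups overlapped at 1 month. Of 23 other settings 9 called this change. It was not called with the compared groups alone or without lesion libraries 1 and 2 at 3 months.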

How the results depend on the processing

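The 5 comparisons in which none of the 9 genes was called (eutopic against sham uterus at each time, its change with time, and 3 months against 1 month in sham and in eutopic uterus) gave 0 under every setting tried, 87 fits in all. The fall of Hdc in lesions at 3 months was called under every setting against eutopic uterus (-3.26 to -2.70) and against sham uterus. Of lesions against eutopic uterus, 1 gene was called at 1 month, but 3 with limma voom, 2 with the compared groups alone and 0 to 1 with 1 library left out; at 3 months 1 was called, but 2 with DESeq2, with limma voom and without lesion libraries 1 and 2, and 1 to 2 with 1 library left out. Of lesions against sham uterus, 1 was called at 1 month, but 2 with DESeq2, limma voom or the compared groups alone and 0 to 1 with 1 library left out; at 3 months 3 were called, but 8 with DESeq2, 1 with the compared groups alone and 1 to 8 with 1 library left out. From 1 to 3 months in lesions 2 were called, but 1 with limma voom, 0 with the compared groups alone and 1 to 2 with 1 library left out, and for the change of the lesion-eutopic difference 1, but 0 with the compared groups alone or without lesion libraries 1 and 2 at 3 months, and 0 to 1 with 1 library left out. With the replicate number as a block, 1 gene in place of 3 was called in lesions against sham uterus at 3 months (Hdc) and 1 in place of 2 from 1 to 3 months in lesions (Hdc), and no other count of the 9 changed; of 36 same-numbered pairs 18 correlated best with their own number. Of 13 relations across libraries 8 passed, and 5 did on group deviations or without the 2 farthest libraries. The number of all genes called also shifted with the setting, as given below, so these counts of the 9 cannot be read alone. The causes of these shifts were not tested.

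Directions turned with limma voom for Fcer1a (0.25) and Cpa3 (0.0039) in eutopic against sham uterus at 1 month, for Fcer1a in lesions against eutopic uterus at 1 month (-0.060), and at 3 months for Fcer1a (-0.48), Cpa3 (-0.15), Mcpt4 (-0.34) and Tpsb2 (-0.066). Without lesion libraries 1 and 2 at 3 months they turned against eutopic uterus for Fcer1a (-1.16), Ms4a2 (-0.096), Cpa3 (-0.80), Cma1 (-0.49), Mcpt4 (-0.92) and Tpsb2 (-0.62), and against sham uterus for Fcer1a (-0.14), Mcpt4 (-0.015) and Tpsb2 (-0.062). With 1 library left out, eutopic against sham uterus ran from -0.48 to 0.087 for Fcer1a at 1 month, and at 3 months from -0.11 to 0.11 for Kit and from -0.23 to 0.44 for Prg2. Lesions against eutopic uterus ran at 1 month from -0.33 to 0.50 for Fcer1a and from -0.25 to 0.81 for Mcpt4, and at 3 months from -0.045 to 0.37 for Kit, -1.32 to 1.18 for Fcer1a, -0.28 to 1.14 for Ms4a2, -0.94 to 1.40 for Cpa3, -0.79 to 1.42 for Cma1, -1.15 to 1.29 for Mcpt4 and -0.80 to 1.40 for Tpsb2, the lowest of the last 6 without lesion library 2. Lesions against sham uterus at 3 months ran from -0.30 to 2.29 for Fcer1a, -0.056 to 2.28 for Cpa3, -0.23 to 2.20 for Mcpt4 and -0.24 to 1.96 for Tpsb2. On group deviations r with Cpa3 was -0.00306 for Hdc and -0.0802 for Epx.

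Over all genes, calls in lesions against eutopic uterus at 1 month numbered 2595 (without lesion library 4) to 10013 (limma voom), with 4607 as reported. At 3 months they numbered 3267 (compared groups alone) to 10862 (without lesion library 1), with 9013 as reported. Against sham uterus they numbered 1720 (without lesion library 4) to 7695 (limma voom) at 1 month (3336 as reported). At 3 months that range was 2600 (compared groups alone) to 10918 (without lesion library 1), with 9257 as reported. From 1 to 3 months lesions gave 0 (compared groups alone) to 3850 (2435 as reported). The change of the lesion-eutopic difference gave 10 (compared groups alone) to 990 (171 as reported). Sham uterus from 1 to 3 months gave 0 to 1036 (limma voom), with 0 as reported. Counts for the receptor chains and Epx limit what depth can show.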
